A study of Saccharomyces cerevisiae with 72 samples.

Results

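Peroxisome and fatty acid oxidation genes of Saccharomyces cerevisiae were followed across 72 Affymetrix yeast arrays. Members are the genes named PEX followed by a number (peroxins) together with POX1, FOX2, POT1, ECI1, DCI1, SPS19, CTA1, MDH3, PXA1 and PXA2. The 37 genes analysed here make up 37 of 5656 named genes and 40 of 9335 probe sets. They comprise 27 peroxins and 10 other genes. The arrays fall into 18 groups of 4, from 6 genotypes and 3 treatments. The genotypes are wild type (strain KY652) and deletions of GCN2 (gcn2, KY654), GCN4 (gcn4, KY656), GLN3 (gln3, KY640), GCN2 with GLN3 (gcn2 gln3, KY641) and GCN4 with GLN3 (gcn4 gln3, KY643), with 1 strain for each. Cultures were left untreated or exposed for 1 h to 3-aminotriazole (3-AT) at 10 mM or to 200 nM rapamycin. All of them grew in a synthetic medium with dextrose at 2%, ammonium sulfate at 0.5% and every amino acid other than histidine. The study asked how far the general amino acid control (GAAC) and TOR pathways shape the response to amino acid starvation and to rapamycin.

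In yeast, fatty acids are broken down by β-oxidation in peroxisomes alone. Peroxins build the organelle: soluble receptors carry enzymes to a docking complex, a RING ubiquitin ligase complex and an exporter recycle the receptors, and other peroxins insert membrane proteins or set peroxisome number and size. Many of these genes are known to be repressed by glucose and induced by oleate through the factors Oaf1, Pip2 and Adr1. 3-AT blocks histidine synthesis and is also a known inhibitor of catalase, and rapamycin inhibits the TORC1 kinase. Gcn2 is the kinase that senses uncharged tRNA, Gcn4 the transcriptional activator translated in response, and Gln3 a GATA activator held in check by TORC1.

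Values are deposited signals on a linear scale, already brought to a common mean on each array, so a change is a change relative to the other transcripts. In these bulk cultures, fewer cells that express a gene and less of its RNA per cell cannot be told apart. A signal counted as above background when it exceeded the 30th percentile of its array, which lay at 66.0 to 137. The signals of GCN4 and GLN3 separated the strains as labelled: GCN4 signal was 3.85 to 86.8 on the 24 arrays of strains deleted for it and 8080 to 23622 on the other 48, and GLN3 signal was 0.416 to 39.4 on 36 arrays against 124 to 870. GCN2 did not separate in this way, at 74.9 to 226 on the 24 arrays of strains deleted for it and 81.5 to 391 on the others; whether its probe set lies outside the deleted part was not tested. On 3 arrays the ratio of 3′ to 5′ actin signal stood apart, at 230 (gcn2 gln3 with 3-AT, replicate 1), 113 (gcn2 gln3 with rapamycin, replicate 1) and 43.2 (gcn4 gln3 with rapamycin, replicate 2), against 1.31 to 5.03 on the other 69. Counts of members called are therefore also given without these 3 arrays. The labels do not say whether replicates are separate cultures, and the p-values then reflect only how much these arrays spread, which may be technical.

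Of the 37 members, 33 were tested, and 23 of them were above background on all 72 arrays. The 4 left out were POX1, the acyl-CoA oxidase of the first oxidation step, DCI1, a homologue of the isomerase Eci1, and the cargo receptor genes PEX9 and PEX18. DCI1 signal was above background on 0 arrays, PEX9 and PEX18 on 1 each. POX1 has 4 probe sets, none of them above background on more than 3 arrays, with a highest signal of 134.

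In wild type, both drugs raised the receptor genes PEX5, PEX7 and PEX21, the docking genes PEX14 and PEX17, the RING genes PEX2 and PEX10 and the membrane import gene PEX3, together with CTA1, ECI1 and PXA2. Rapamycin also raised FOX2, POT1 and MDH3. With 3-AT, 15 of 33 members were higher (45.5%) and 1 was lower, where 22.2% of all 6869 probe sets tested were higher and 13.6% were lower. With rapamycin, 21 were higher (63.6%) and 1 was lower, against 22.2% and 15.7% of all probe sets. The median change of the members was 0.47 on the log2 scale with 3-AT and 0.61 with rapamycin, against 0.09 and 0.14 over all probe sets. A change counts as higher or lower when its adjusted p in limma is under 0.05. With both drugs 14 members were higher: PEX2, PEX3, PEX5, PEX7, PEX10, PEX11, PEX14, PEX17, PEX21, PEX28, PEX30, CTA1, ECI1 and PXA2. PEX25 passed with 3-AT alone, and PEX4, PEX15, PEX22, PEX29, FOX2, MDH3 and POT1 with rapamycin alone. Both comparisons use the same 4 untreated arrays. Without the 3 arrays with high actin ratios, the median over probe sets of the residual standard deviation fell from 0.41 to 0.28. The counts rose to 19 higher with 3-AT and 24 higher with rapamycin, with 1 lower in each. The background rose as well. Higher were then 57.6% of members with 3-AT, against 31.0% of all probe sets, and 72.7% with rapamycin, against 33.0%. Of all probe sets, 22.8% were lower with 3-AT and 21.8% with rapamycin. Median centring of the arrays moved the median of all probe sets by -0.23 in the 3-AT response and by -0.13 in the rapamycin response of wild type. It left 12 members higher with 3-AT (36.4%, against 16.3% of all probe sets) and 18 with rapamycin (54.5%, against 18.4%), and turned the split of all probe sets from 1523 higher and 934 lower to 1120 and 1533 with 3-AT, and from 1522 and 1075 to 1266 and 1334 with rapamycin.

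Members also rose in all 5 mutants. With 3-AT, the higher members numbered 19 in gln3 (background 21.4%), 15 in gcn2 (25.3%), 18 in gcn4 (29.4%), 18 in gcn4 gln3 (28.5%) and 19 in gcn2 gln3 (27.9%). With rapamycin they numbered 17 in gln3 (21.2%), 16 in gcn2 (17.5%), 20 in gcn4 (22.9%), 16 in gcn4 gln3 (23.0%) and 15 in gcn2 gln3 (16.5%). As a share of 33 these counts are 45.5% to 60.6%, above the background share in each of the 10 comparisons. Without the 3 arrays with high actin ratios, the higher members with 3-AT numbered 24 in gln3, 22 in both gcn2 and gcn4, 21 in gcn4 gln3 and 19 in gcn2 gln3 (57.6% to 72.7%, background 30.7% to 38.5%). With rapamycin they then numbered 20 in gln3, 23 in both gcn2 and gcn4, 18 in gcn4 gln3 and 16 in gcn2 gln3 (48.5% to 69.7%, background 24.3% to 34.7%). In the fit over all arrays, the only lower members were PEX31 in gln3 with either drug (1 each, background 9.23% with 3-AT and 10.2% with rapamycin) and PEX31 and PEX25 in gcn4 gln3 with rapamycin (2, background 20.0%). The count of falls in the mutants moved with the scaling. With median centring 2 members were lower with 3-AT in each of gcn2, gcn4, gcn2 gln3 and gcn4 gln3 (6.06%), from among PEX4, PEX15, PEX31 and SPS19. With rapamycin 4 were lower in gcn4 gln3 (12.1%). Of all probe sets, 24.7% to 28.3% were then lower with 3-AT in these strains and 22.9% with rapamycin in gcn4 gln3. With quantile normalization the counts were 3, 1, 2 and 2 with 3-AT (background 16.5% to 22.7%) and 5 with rapamycin in gcn4 gln3 (background 23.1%). Either scaling added PEX31 in gcn2 with rapamycin (background 16.1% with centring, 14.7% with quantile normalization), and centring PEX25 in gcn4 (19.3%). Each count was a smaller share of members than of all probe sets. A fit restricted to the arrays compared called no member in the rapamycin response of gcn4 gln3, where 22 of 33 had an unadjusted p under 0.05 in the fit over all arrays, and without the 3 arrays with high actin ratios 1 was lower there (background 17.4%). With 3-AT, 8 members were higher in all 6 genotypes: PEX2, PEX7, PEX10, PEX21, PEX28, CTA1, ECI1 and PXA2. Of these 8, PEX28 alone had calls that a single array could end, in the 4 strains that lacked GCN2 or GCN4. With rapamycin 6 were: PEX3, PEX15, PEX21, PEX30, POT1 and PXA2. Only PEX21 and PXA2 were on both lists, and PEX6 and PEX27 passed in none of the 12 responses. PEX6 encodes an ATPase that pulls receptors out of the membrane, and PEX27 a Pex11 family protein. On replicate 2 of gcn4 gln3 with rapamycin PEX6 read 144, against 1203, 1306 and 1408 on the other 3. PEX27 read 1345 there, against 114, 98.7 and 99.4. The fit takes the spread of a probe set over all 72 arrays, so such a value enters the SE of every response of that gene.

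**Figure D1:**
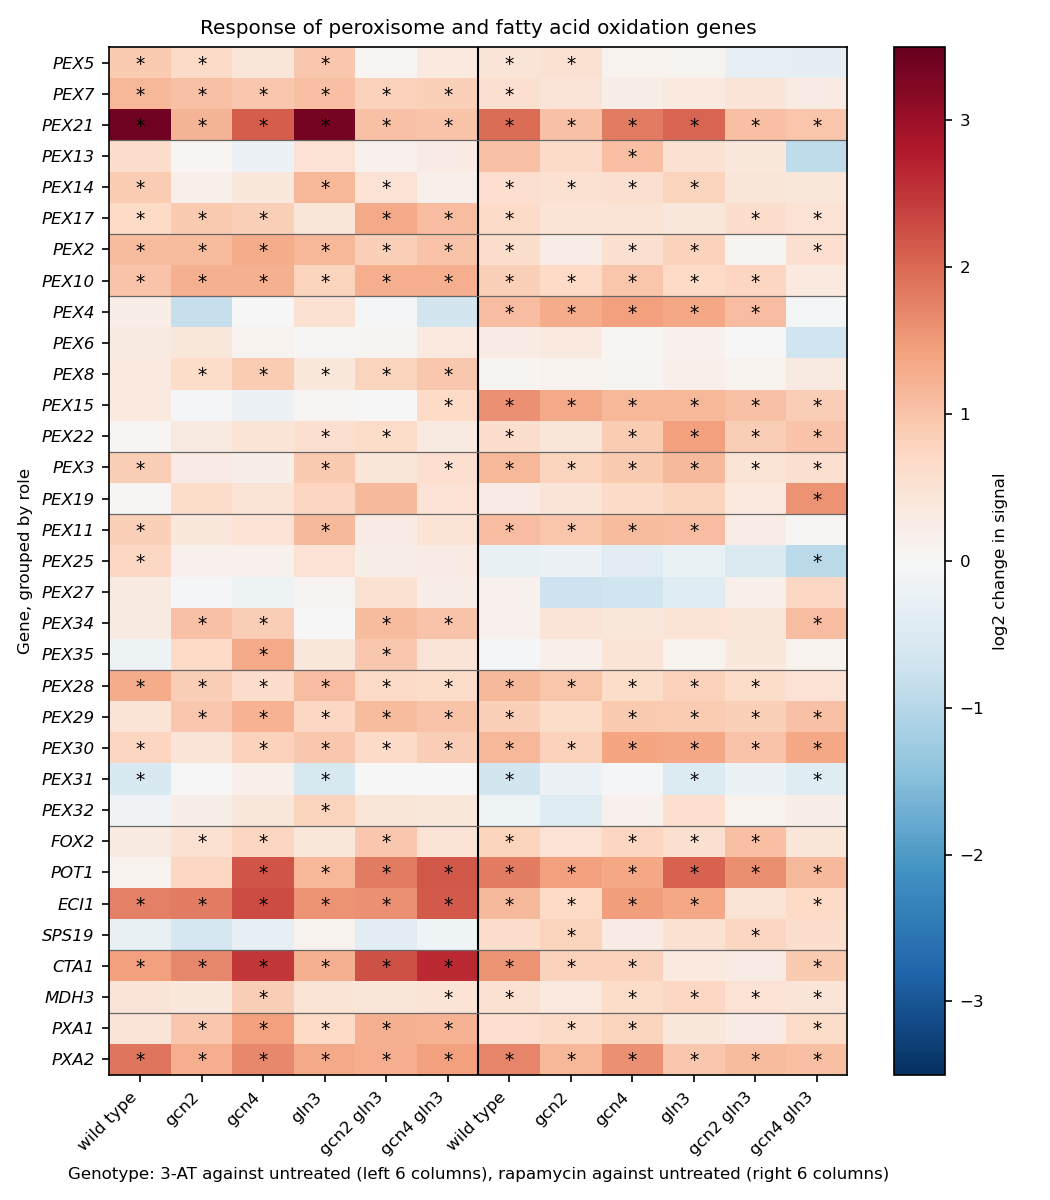
Log2 change of each of the 33 members tested (rows, grouped by role from receptors at the top to transporters at the bottom) with 3-AT or rapamycin against untreated cells of the same genotype (columns); red is higher, blue is lower, and an asterisk marks an adjusted p under 0.05. PEX21 in wild type and gln3 with 3-AT is the deepest red (3.40 and 3.36), POT1 is pale with 3-AT in wild type (0.12) and red in gcn4 (2.19), and PEX31 is the one row with asterisks on blue under both drugs.

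**Figure D2:**
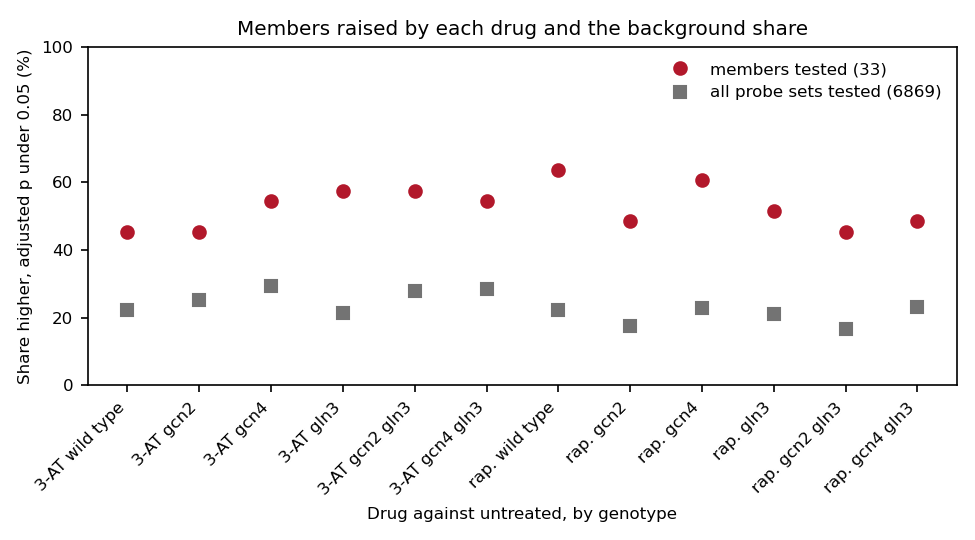
Percentage of the 33 members tested (red circles) and of all 6869 probe sets tested (grey squares) that were higher at an adjusted p under 0.05, for each drug in each genotype. The members lie at 45.5% to 63.6% and all probe sets at 16.5% to 29.4%.

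Among the receptor genes, PEX21 had the highest rise of any member, and its rise with 3-AT was smaller in each strain that lacked GCN2 or GCN4. Pex21 is a coreceptor that works with Pex7, the receptor of the PTS2 signal, and the thiolase encoded by POT1 is its best known cargo. In untreated wild type PEX21 signal was 286, 343, 257 and 245. With 3-AT it was 3125, 2913, 2572 and 3283, and with rapamycin 1125, 1291, 1024 and 924. The 3 groups of wild type did not overlap, with 3-AT above rapamycin and rapamycin above untreated. The log2 rise was 3.40 (SE 0.25, adjusted p = 9.3e-18), or 10.6-fold, with 3-AT and 1.95 (SE 0.25, adjusted p = 2.4e-09), or 3.87-fold, with rapamycin. In gln3 the 4 arrays with 3-AT read 3823, 3957, 3003 and 3258, against 214 to 477 without treatment. They overlap the 3-AT arrays of wild type, though 3823 and 3957 lie above all 4 of those. In gcn2 they read 549, 650, 605 and 897 against 200 to 397, and in gcn4 676, 801, 1022 and 916 against 164 to 245. Arrays with 3-AT from these single mutants stayed below all 4 of wild type, yet above their own untreated arrays. In gcn2 gln3 the values with 3-AT were 1282, 812, 613 and 710 against 252 to 580, and in gcn4 gln3 718, 888, 632 and 1051 against 283 to 611.

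The 3-AT response of PEX21 differed from that of wild type by -2.20 (SE 0.35, adjusted p = 5.7e-06) in gcn2, by -1.29 (SE 0.35, adjusted p = 0.014) in gcn4, by -2.38 (SE 0.35, adjusted p = 1.2e-06) in gcn2 gln3 and by -2.41 (SE 0.35, adjusted p = 6.2e-07) in gcn4 gln3. In gln3 the difference was -0.04 with an SE of 0.35. The 4 differences passed whichever array was left out. The remaining rise in those 4 strains still passed, at 1.20 in gcn2, 2.12 in gcn4, 1.03 in gcn2 gln3 and 0.99 in gcn4 gln3. With rapamycin PEX21 rose by 0.97 to 2.03 over the 6 genotypes, and no difference from wild type passed; without the 3 arrays with high actin ratios the gcn2 gln3 difference did, at -1.07 (adjusted p = 0.031).

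**Figure D3:**
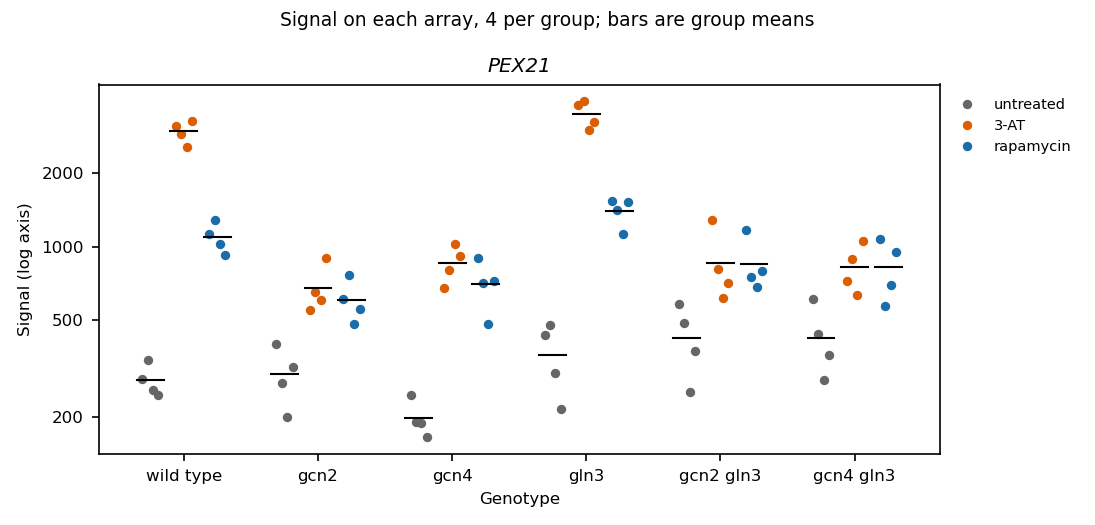
PEX21 signal (vertical, log axis) on each of the 72 arrays by genotype and treatment; points are arrays and bars are group means, 4 arrays per group. With 3-AT, wild type and gln3 lie between 2572 and 3957, and the other 4 genotypes between 549 and 1282.

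The other receptor genes tested, PEX5 and PEX7, also rose in wild type with 3-AT. Pex5 is the receptor of the common PTS1 signal. PEX5 read 233, 177, 190 and 133 without treatment and 321, 344, 341 and 348 with 3-AT, a rise of 0.91 (SE 0.18, adjusted p = 6.1e-05) with no overlap. Its rise with 3-AT also passed in gcn2 (0.66) and gln3 (0.95), and was 0.41 in gcn4, 0.08 in gcn2 gln3 and 0.33 in gcn4 gln3. Of these 3 mutants only gcn2 gln3 differed from wild type, by -0.83 (SE 0.26, adjusted p = 0.045), and leaving out any 1 of 12 of the 16 arrays, or the 3 arrays with high actin ratios, ended that call (adjusted p 0.057 to 0.20 in the former case). PEX7 rose by 1.17 in wild type (adjusted p = 1.2e-05) and by 0.81 to 1.17 over the 6 genotypes with 3-AT. With rapamycin in wild type, PEX5 (0.46, adjusted p = 0.043) and PEX7 (0.57, adjusted p = 0.029) passed by little: leaving out any 1 of 6 of the 8 arrays ended the call of PEX5, and any 1 of 5 that of PEX7, as did median centring for both.

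The docking genes PEX14 and PEX17 and the RING ligase genes PEX2 and PEX10 rose in wild type with either drug. Pex13, Pex14 and Pex17 form the docking complex at the membrane, and Pex2 and Pex10 belong to the complex that ubiquitinates the receptors. PEX2 read 1957, 1724, 2412 and 2108 without treatment, 4680, 4386, 4289 and 4112 with 3-AT, and 2920, 3179, 3085 and 3226 with rapamycin. The 3 groups did not overlap, with rises of 1.10 (SE 0.15, adjusted p = 1.6e-08) and 0.61 (SE 0.15, adjusted p = 0.00073). PEX10 rose by 1.00 (adjusted p = 0.0001) and 0.83 (adjusted p = 0.0011). Over the 6 genotypes PEX2 rose with 3-AT by 0.83 to 1.29 and PEX10 by 0.77 to 1.27. In wild type PEX17 rose by 0.70 with 3-AT, a call lost with median centring or quantile normalization, and by 0.68 with rapamycin. The wild-type rapamycin call of PEX14 (0.58) was lost with quantile normalization. PEX14 rose by 0.88 in wild type and 1.16 in gln3 with 3-AT, and was at 0.17 in gcn2, 0.36 in gcn4 and 0.17 in gcn4 gln3, where it did not pass; no difference of response passed. It also passed in gcn2 gln3 (0.49, adjusted p = 0.026), and that call was lost with median centring, quantile normalization, only the arrays compared or array weights, without the 3 arrays with high actin ratios (0.28, adjusted p = 0.13), and on leaving out replicate 1 with 3-AT or replicate 2 or 3 of the untreated group. With the 3 arrays of high actin ratio left out, its difference from wild type passed in gcn2 (-0.70, adjusted p = 0.02) and in gcn4 gln3 (-0.70, adjusted p = 0.013). PEX13 passed only in gcn4 with rapamycin (1.05), a call that ended when any 1 of the 8 arrays was left out. Its signal on replicate 2 of gcn4 gln3 with rapamycin was 6.48, against 434, 605 and 462 on the other 3. The fit takes the spread of a probe set over all 72 arrays, so that value enters the SE of every PEX13 response. In wild type PEX13 read 391, 314, 306 and 275 untreated and 603, 656, 747 and 582 with rapamycin, with no overlap. In gcn2 it read 316 to 389 and 504 to 638, also with no overlap. In gln3, gcn2 gln3 and gcn4 gln3 the untreated and rapamycin groups overlapped.

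PEX15 rose with rapamycin in all 6 genotypes and with 3-AT in gcn4 gln3 alone. Pex15 is the membrane anchor of the ATPases that recycle receptors. Its signal in wild type was 414, 281, 339 and 417 without treatment and 511, 481, 322 and 525 with 3-AT, which overlap. With rapamycin it was 1110, 1085, 1150 and 1015, above every other wild-type array, a rise of 1.61 (SE 0.24, adjusted p = 2.2e-07). In the mutants the rapamycin rise was 1.17 in gln3, 1.33 in gcn2, 1.15 in gcn4, 0.86 in gcn4 gln3 and 1.03 in gcn2 gln3, and no difference from wild type passed. Replicate 2 of gcn4 gln3 with rapamycin read 143, below the untreated arrays (185 to 316). The rapamycin call there was lost with quantile normalization or only the arrays compared. The 3-AT rise in gcn4 gln3 was 0.69 (adjusted p = 0.018) and was lost without replicate 2 or replicate 4 of the untreated group (adjusted p 0.054 to 0.094). PEX4, the ubiquitin-conjugating enzyme of receptor recycling, had a like order of values: 161, 146, 250 and 151 without treatment, 150, 164, 253 and 275 with 3-AT, and 322, 394, 470 and 305 with rapamycin in wild type. Its rapamycin rise passed in 5 genotypes, at 1.09 to 1.44. In gcn4 gln3 it was -0.03 with all arrays and 0.98 (adjusted p = 0.00029) without replicate 2, which read 22.2 against 341, 453 and 311 on the other 3. PEX22, the anchor of Pex4, passed with rapamycin in 5 genotypes (0.61 to 1.45). In wild type these calls were near the threshold: PEX4 (1.09, adjusted p = 0.02) lost its call without replicate 2 or 4 of the untreated group or replicate 3 with rapamycin (adjusted p 0.05 to 0.067), and PEX22 (0.61, adjusted p = 0.019) without replicate 1 or 2 of the untreated group or replicate 3 with rapamycin (adjusted p 0.066 to 0.093). PEX8, which links docking and RING complexes from inside the organelle, passed with 3-AT in 5 genotypes (0.41 to 0.95) and with rapamycin in none; leaving out any 1 of 6 of the 8 arrays, or either scaling, ended its call in gln3.

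PEX3 and PEX19 insert membrane proteins, Pex3 as the anchor and Pex19 as the chaperone. PEX3 rose by 0.87 (adjusted p = 0.00011) with 3-AT and by 1.16 (adjusted p = 4.4e-07) with rapamycin in wild type, and with rapamycin in all 6 genotypes (0.49 to 1.16). The rapamycin call in gcn2 gln3 (0.49) was lost with median centring, quantile normalization or only the arrays compared, and on leaving out any 1 of 6 of the 8 arrays (adjusted p 0.059 to 0.13). That in gcn4 gln3 was lost without replicate 3 with rapamycin (0.33, adjusted p = 0.13). PEX19 passed once, with rapamycin in gcn4 gln3 (1.58), where the 4 arrays read 199, 6408, 550 and 237. The array at 6408 is replicate 2, and without it the change was 0.47 (adjusted p = 0.30).

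Genes that set peroxisome number and size did not move together. PEX11, which encodes the main division peroxin, read 2170, 2033, 2039 and 2045 in untreated wild type, 4074, 3773, 2834 and 4181 with 3-AT and 4814, 4255, 4003 and 4404 with rapamycin. Both treated groups lay above the untreated one, with rises of 0.83 (SE 0.24, adjusted p = 0.0042) and 1.07 (SE 0.24, adjusted p = 0.00018). It also rose in gln3 with 3-AT (1.13) and in gcn2, gcn4 and gln3 with rapamycin (0.98 to 1.12), and was at 0.27 in gcn2 gln3 and 0.05 in gcn4 gln3 with rapamycin, where replicate 2 read 734 against 3842, 3830 and 3744. In the fit without the 3 arrays of high actin ratio, PEX11 differed from wild type in gcn2 with 3-AT by -0.47 (adjusted p = 0.027) and in gcn2 gln3 with rapamycin by -0.65 (adjusted p = 0.0018). PEX25, of the Pex11 family, read 1340, 1138, 1342 and 1295 without treatment and 2074, 2124, 2164 and 2113 with 3-AT in wild type. These groups did not overlap, yet the rise of 0.73 (SE 0.28) passed by little (adjusted p = 0.038), and leaving out any 1 of the 8 arrays gave 0.68 to 0.76 with adjusted p 0.051 to 0.091. Its fall with rapamycin in gcn4 gln3 (-0.96) was lost without replicate 2 (-0.43, adjusted p = 0.17). PEX34, a membrane protein that acts on peroxisome number, passed with 3-AT in gcn2 (1.04), gcn4 (0.85), gcn2 gln3 (1.09) and gcn4 gln3 (1.00), and stood at 0.30 in wild type and -0.02 in gln3; without replicate 2 of untreated gcn4 its call in gcn4 was lost (0.71, adjusted p = 0.072). When the 3 arrays with high actin ratios were left out, its difference from wild type passed in gcn2 (0.73, adjusted p = 0.033) and gcn4 gln3 (0.69, adjusted p = 0.031). Its rapamycin call in gcn4 gln3 (1.08) rested on replicate 2, which read 8848 against 976 to 1616, and was 0.36 without it.

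PEX35, a membrane protein that affects peroxisome abundance, rose with 3-AT in gcn4 and in gcn2 gln3. Wild type read 311, 408, 542 and 263 without treatment and 243, 320, 565 and 261 with 3-AT, which overlap throughout. In gcn4 the values were 312, 313, 461 and 311 without treatment and 596, 883, 966 and 1048 with 3-AT, with no overlap, a rise of 1.31 (SE 0.30, adjusted p = 0.00025). The response in gcn4 differed from that of wild type by 1.48 (SE 0.42, adjusted p = 0.022), and the call was lost on leaving out replicate 1 or 4 of wild type with 3-AT, replicate 3 of untreated wild type or replicate 4 of gcn4 with 3-AT (1.29 to 1.38, adjusted p 0.056 to 0.081). The rise in gcn2 gln3 was 0.95 (adjusted p = 0.0086), and 0.72 (adjusted p = 0.067) without replicate 1 with 3-AT, one of the arrays with a high actin ratio.

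The family of PEX28, PEX29, PEX30, PEX31 and PEX32, whose proteins restrict peroxisome number and size, was split in direction. PEX28 rose in wild type by 1.29 with 3-AT and 1.14 with rapamycin, and PEX30 by 0.74 and 1.15, the former lost with median centring or quantile normalization, and without replicate 1 of untreated wild type (0.61, adjusted p = 0.055). PEX29 passed in wild type with rapamycin (0.84, adjusted p = 0.014), and lost its call without replicate 1 of the untreated group or replicate 3 with rapamycin (adjusted p 0.092 to 0.10). PEX31 fell. It read 310, 305, 318 and 265 without treatment in wild type, 167, 207, 242 and 211 with 3-AT and 196, 184, 200 and 189 with rapamycin. Every treated array lay below every untreated one, with changes of -0.54 (SE 0.14, adjusted p = 0.0016) and -0.64 (SE 0.14, adjusted p = 0.00018). In gln3 it fell by 0.57 with 3-AT and by 0.47 with rapamycin, while its 3-AT change was 0.01 in gcn2, 0.17 in gcn4, 0.01 in gcn2 gln3 and -0.02 in gcn4 gln3. The gcn4 response differed from that of wild type by 0.71 (SE 0.20, adjusted p = 0.018). This call was lost with median centring or quantile normalization, and on leaving out replicate 1 of wild type with 3-AT, replicate 1 or 4 of untreated gcn4, or replicate 1 or 3 of gcn4 with 3-AT (0.61 to 0.65, adjusted p 0.052 to 0.071). Without the 3 arrays with high actin ratios, the 3-AT difference passed in gcn2 (0.55, adjusted p = 0.045), gcn4 (0.71, adjusted p = 0.0037) and gcn4 gln3 (0.52, adjusted p = 0.042).

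Of the enzymes of fatty acid oxidation, POT1 rose with rapamycin in every genotype, and with 3-AT in every mutant but gcn2; it did not pass with 3-AT in wild type. POT1 encodes 3-ketoacyl-CoA thiolase, the last enzyme of the cycle. In wild type it read 166, 145, 255 and 228 without treatment and 226, 273, 148 and 218 with 3-AT, a change of 0.12 (SE 0.34). With rapamycin it read 724, 499, 864 and 646. The first 2 groups overlap and the rapamycin group lies above both, a rise of 1.79 (SE 0.34, adjusted p = 1.7e-05). In gcn4, POT1 read 146, 122, 92.6 and 98.4 without treatment, 560, 616, 419 and 491 with 3-AT and 225, 268, 354 and 327 with rapamycin. Here the 3-AT group was the highest, and none of the 3 overlapped. The rise with 3-AT was 2.19 (SE 0.34, adjusted p = 2.9e-07) in gcn4, 2.18 in gcn4 gln3, 1.81 in gcn2 gln3 and 1.17 in gln3, and 0.71 (adjusted p = 0.09) in gcn2.

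The 3-AT response of POT1 differed from that of wild type by 2.07 (SE 0.48, adjusted p = 0.0027) in gcn4, by 2.05 (SE 0.48, adjusted p = 0.0026) in gcn4 gln3 and by 1.69 (SE 0.48, adjusted p = 0.023) in gcn2 gln3. The difference was 1.05 in gln3 and 0.59 in gcn2, with an SE of 0.48 in each, and neither passed. Untreated POT1 read 145 to 255 in wild type, 92.6 to 146 in gcn4 and 88.2 to 146 in gln3. In gcn2 gln3 it read 119 to 153 and in gcn4 gln3 78.3 to 155. No untreated difference of POT1 passed, yet these values enter each difference of response. With 3-AT, gln3 read 230 to 287, which overlaps wild type (148 to 273). The 3-AT arrays of gcn4, gcn2 gln3 and gcn4 gln3 all lay above it, at 345 to 641. The gcn4 and gcn4 gln3 differences passed whichever array was left out. The gcn2 gln3 difference was lost with quantile normalization, and on leaving out replicate 2 of gcn2 gln3 with 3-AT, replicate 3 or 4 of untreated wild type or replicate 3 of wild type with 3-AT (1.51 to 1.61, adjusted p 0.051 to 0.067). With rapamycin the rise ran from 1.12 in gcn4 gln3 to 2.06 in gln3, and no difference from wild type passed. In gcn4 gln3 the rapamycin arrays read 462, 63.9, 335 and 586, so replicate 2 lay below the untreated arrays, and the call was lost without replicate 4 (0.76, adjusted p = 0.061).

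**Figure D4:**
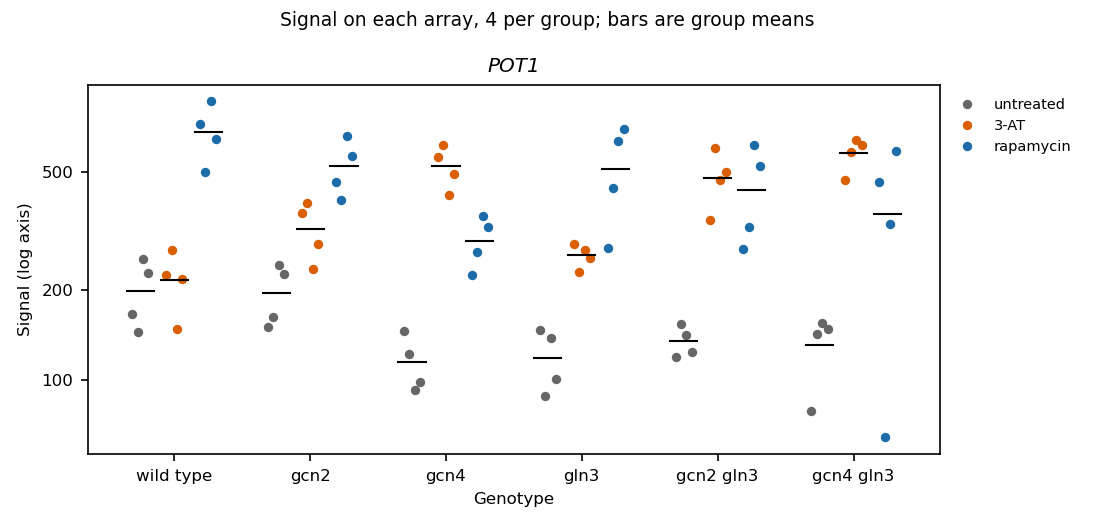
POT1 signal (vertical, log axis) on each array by genotype and treatment; points are arrays and bars are group means, 4 arrays per group. In wild type the 3-AT arrays (148 to 273) overlap the untreated ones (145 to 255), while in gcn4 they lie at 419 to 616, above untreated (92.6 to 146) and rapamycin (225 to 354).

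ECI1, the enoyl-CoA isomerase for unsaturated fatty acids, rose with 3-AT in all 6 genotypes. In wild type it read 228, 171, 306 and 185 without treatment, 684, 828, 743 and 705 with 3-AT and 387, 435, 592 and 523 with rapamycin. The 3 groups did not overlap, with rises of 1.77 (SE 0.27, adjusted p = 3.1e-07) and 1.14 (SE 0.27, adjusted p = 0.00049). Over the 6 genotypes the 3-AT rise was 1.58 to 2.29. In gcn2 gln3 replicate 1 with 3-AT read 290, against 790, 853 and 838. FOX2, the multifunctional enzyme of the middle steps, rose with rapamycin in wild type (0.77, adjusted p = 0.0028), gcn4, gln3 and gcn2 gln3, and with 3-AT in gcn2, gcn4 and gcn2 gln3 (0.52 to 0.94). Its 3-AT call in gcn2 (0.52) was lost with median centring, quantile normalization or no filter, and on leaving out any 1 of 7 of the 8 arrays (adjusted p 0.05 to 0.13). The rapamycin call in gln3 (0.57) was lost with either scaling and without replicate 1 or 4 of either group (adjusted p 0.065 to 0.17), and the 3-AT call in gcn4 with median centring. SPS19, the 2,4-dienoyl-CoA reductase, passed with 3-AT in no genotype, and with rapamycin in gcn2 (0.77) and gcn2 gln3 (0.74). Both calls were lost with median centring or quantile normalization, and on leaving out any 1 of 4 of the 8 arrays in gcn2 (adjusted p 0.059 to 0.15) and any 1 of 5 of 8 in gcn2 gln3 (adjusted p 0.063 to 0.12).

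CTA1, the peroxisomal catalase that removes the hydrogen peroxide made by oxidation, was below background in untreated wild type, at 62.2, 56.8, 57.8 and 61.9. With 3-AT it read 158, 163, 166 and 164 and with rapamycin 182, 123, 274 and 167, so it was at least 1.85-fold higher (adjusted p = 3e-06) and at least 2.03-fold higher (adjusted p = 3.9e-07). Such a bound takes the mean log2 signal of the brighter group against the background of the dimmer group's arrays. In gcn4 with 3-AT it read 378, 311, 246 and 284, at least 3.74-fold higher than untreated (adjusted p = 1.7e-12). In gcn4 gln3 with 3-AT the values were 426, 372, 367 and 357, and in gcn2 gln3 410, 275, 327 and 248. All 3 of these groups lay above the 3-AT group of wild type, as did gcn2 with 3-AT at 169, 264, 190 and 198. Untreated CTA1 was above background on 0 of 4 arrays in wild type, gcn4 and gln3 and on 1 of 4 in each of the other strains, so the size of a difference between responses is uncertain and none is given here. In limma the 3-AT response of gcn4 gln3 exceeded that of wild type (adjusted p = 0.03), and the call was lost with median centring or quantile normalization, and on leaving out replicate 1 or 4 of untreated wild type, replicate 1 of wild type with 3-AT, replicate 3 or 4 of untreated gcn4 gln3 or replicate 1 of gcn4 gln3 with 3-AT (adjusted p 0.051 to 0.097). With rapamycin, CTA1 did not pass in gln3 or gcn2 gln3, where it was above background on 2 of 4 treated arrays each. The gcn2 gln3 response was below that of wild type (adjusted p = 0.018), a call lost with only the arrays compared, and without replicate 1 of untreated gcn2 gln3, replicate 2 of gcn2 gln3 with rapamycin or replicate 3 of wild type with rapamycin (adjusted p 0.061 to 0.086). MDH3, the malate dehydrogenase that reoxidises NADH in the organelle, rose in wild type with rapamycin by 0.53 (adjusted p = 0.025), and the call was lost without replicate 1 or 4 of the untreated group or replicate 3 with rapamycin (adjusted p 0.058 to 0.091).

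PXA2 rose in all 12 responses. Pxa1 and Pxa2 together form the ABC transporter that brings long-chain fatty acids into peroxisomes. In wild type PXA2 read 80.9, 67.1, 138 and 127 without treatment, 349, 337, 406 and 356 with 3-AT and 347, 270, 325 and 356 with rapamycin. Both treated groups lay above the untreated one and overlapped each other, with rises of 1.87 (SE 0.21, adjusted p = 5.5e-11) and 1.71 (SE 0.21, adjusted p = 6.7e-10). Over the 6 genotypes the rise was 1.26 to 1.87 with 3-AT and 0.95 to 1.71 with rapamycin. No difference from wild type passed; without the 3 arrays with high actin ratios 3 did, in gcn2 gln3 with 3-AT (-0.91, adjusted p = 0.0073) and rapamycin (-0.81, adjusted p = 0.026) and in gln3 with rapamycin (-0.76, adjusted p = 0.049). PXA1 passed with 3-AT in the 5 mutants, at 0.69 to 1.43, and stood at 0.44 in wild type; its call in gln3 (0.69) was lost with either scaling and on leaving out any 1 of 6 of the 8 arrays (adjusted p 0.056 to 0.14).

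**Figure D5:**
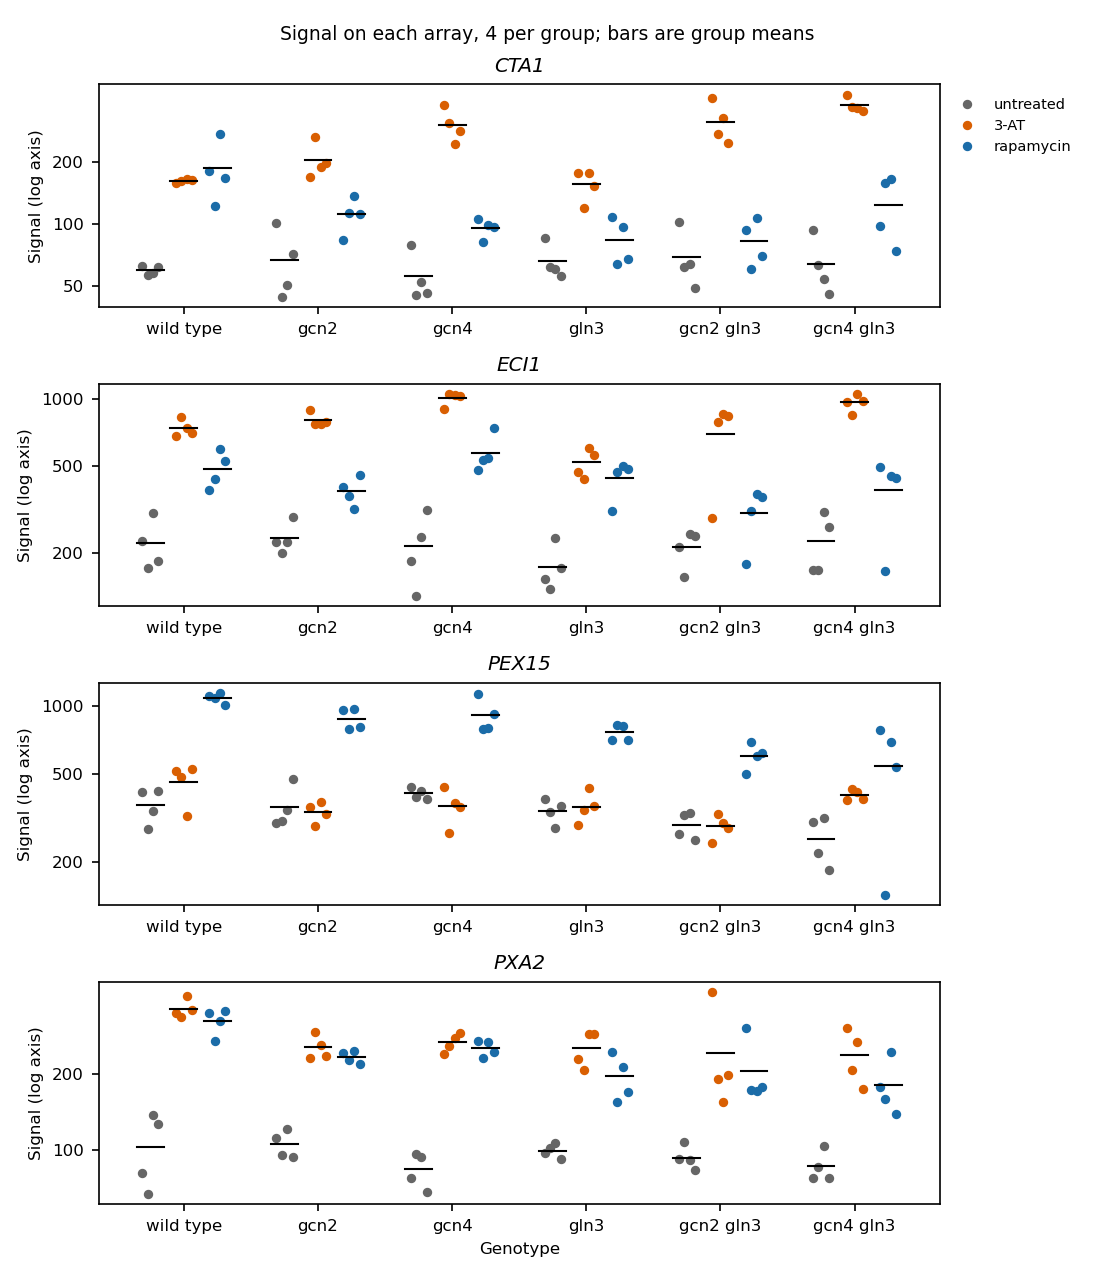
Signal (vertical, log axis) of CTA1, ECI1, PEX15 and PXA2 on each array by genotype and treatment; points are arrays and bars are group means, 4 arrays per group. Group means of CTA1 and ECI1 are highest with 3-AT in each mutant, those of PEX15 with rapamycin in every genotype, and PXA2 is above its untreated arrays with either drug in every genotype.

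Without treatment, no member differed from wild type in gcn2 (background 0.146% of probe sets), gcn4 (1.21%), gln3 (0.801%) or gcn2 gln3 (1.31%) in limma, where 0, 5, 5 and 2 members had an unadjusted p under 0.05. In gcn4 gln3 1 member did (background 1.19%): SPS19 read 193, 371, 302 and 308 there and 707, 352, 900 and 629 in wild type. These groups overlap, and the change of -1.10 (SE 0.27, adjusted p = 0.018) lost its call with only the arrays compared, and without replicate 1 of gcn4 gln3 or any 1 of replicates 1, 3 and 4 of wild type (-1.09 to -0.91, adjusted p 0.058 to 0.18). With the 3 arrays of high actin ratio left out, the members that differed numbered 1 in gln3 (PEX22, -0.70), 2 in gcn2 gln3 (SPS19, -0.88, and PEX11, 0.40) and 2 in gcn4 gln3 (SPS19, -1.10, and PEX15, -0.52). The background was then 0.873% higher and 2.21% lower in gln3, 1.22% and 2.68% in gcn2 gln3, and 1.54% and 2.96% in gcn4 gln3.

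PEX21 and POT1 were the members whose response to 3-AT most often differed between mutant and wild type. The count of members that differed was 1 of 33 in gcn2 (3.03%, background 3.42%), 4 in gcn4 (12.1%, background 5.63%), 0 in gln3 (background 0.0582%), and 3 (9.09%) in both gcn2 gln3 (background 4.99%) and gcn4 gln3 (5.56%). PEX21 was among them in the 4 strains with any, and POT1 in 3. With limma 2 members had an unadjusted p under 0.05 in gln3. With rapamycin no member differed in gcn2 (0.757%), gcn4 (1.06%), gln3 (0.903%) or gcn4 gln3 (4.12%), where 3, 2, 3 and 10 members had an unadjusted p under 0.05, and 1, CTA1, did in gcn2 gln3 (3.30%). All of these differences share the wild-type arrays. In the fit without the 3 arrays of high actin ratio, the counts with 3-AT were 0 in gln3, 6 in gcn2, 8 in gcn4, 8 in gcn4 gln3 and 3 in gcn2 gln3. The background rose too. It was then 0.480% higher and 0.335% lower in gln3, 3.45% and 5.43% in gcn2, and 8.31% and 6.11% in gcn4. In gcn4 gln3 it was 8.52% and 6.58%, and in gcn2 gln3 5.04% and 5.43%. With rapamycin the counts in that fit were 3 in gln3, 0 in gcn2, 1 in gcn4, 2 in gcn4 gln3 and 7 in gcn2 gln3. Their background was 2.81% higher and 1.62% lower in gln3, 0.379% and 1.57% in gcn2, and 2.17% and 1.89% in gcn4. In gcn4 gln3 it was 3.25% and 3.70%, and in gcn2 gln3 3.46% and 4.40%. All 7 responses in gcn2 gln3 with rapamycin lay below those of wild type, for PEX3, PEX5, PEX11, PEX13, PEX21, CTA1 and PXA2.

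Set directly against each other in wild type, 3-AT and rapamycin differed for 9 of 33 members. The 5 that were higher with 3-AT (background 19.8%) were PEX21 (1.45, adjusted p = 3.1e-06), PEX25 (0.99), PEX7 (0.59), PEX2 (0.49) and PEX5 (0.45). The 4 that were lower with 3-AT (background 15.8%) were POT1 (-1.67, adjusted p = 6.6e-05), PEX15 (-1.27, adjusted p = 2.7e-05), SPS19 (-0.85) and PEX22 (-0.53). These counts are 15.2% and 12.1% of 33, below their backgrounds. With median centring 3 were higher (9.09%, against 16.8% of all probe sets) and 7 were lower (21.2%, against 19.2%). The differences of PEX5, PEX7 and PEX22 were each lost when 1 array was left out (6 of 8 arrays for PEX5 and PEX22, 2 of 8 for PEX7). Without the 3 arrays with high actin ratios 6 were higher (18.2%, against 27.4% of all probe sets) and 8 lower (24.2%, against 24.3%).

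Other genes of the pathway were read from lists chosen with earlier results of these data known. Their counts stand beside the wild-type backgrounds of 22.2% higher with either drug, 13.6% lower with 3-AT and 15.7% lower with rapamycin. Of 7 genes of the carnitine shuttle and peroxisomal NADPH supply, 4 rose in wild type with 3-AT (57.1%) and 7 with rapamycin. YAT2 and YAT1 encode carnitine acetyltransferases outside the organelle, CAT2 the one shared by peroxisomes and mitochondria, and CRC1 the mitochondrial carnitine carrier. YAT2 rose by 3.91 and 4.61 with 3-AT and rapamycin, CRC1 by 3.08 and 4.64, and CAT2 by 1.18 and 2.80, while YAT1 changed by -0.23 and rose by 2.36. Of 7 genes of the glyoxylate cycle and gluconeogenesis, 4 rose with 3-AT (57.1%) and 6 with rapamycin (85.7%). ICL1, isocitrate lyase, rose by 3.06 and 2.04, and MLS1, malate synthase, by 1.07 and 4.15. The 3-AT response was smaller than in wild type for YAT2 (differences of -2.91 to -2.31) and for ICL1 (-1.91 to -1.71) in the 4 strains that lacked GCN2 or GCN4, the strains in which PEX21 rose less.

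Of 6 regulators of the oleate genes, 3 rose with 3-AT and 2 with rapamycin (33.3%). PIP2, which encodes the partner of Oaf1, rose by 2.01 and 1.41, and OAF3, a repressor of oleate genes, by 1.69 and 0.97. ADR1 encodes an activator of glucose-repressed peroxisomal genes; it changed by -0.24 (SE 0.40) with 3-AT and by 0.92 (adjusted p = 0.064) with rapamycin in wild type. In gcn4 with 3-AT it rose by 1.91, and its response exceeded that of wild type by 2.15 (adjusted p = 0.01) in gcn4, 2.40 in gcn2 gln3 and 3.28 in gcn4 gln3, the 3 strains in which POT1 did so. Of 8 genes of fatty acid activation and peroxisomal transport, 1 rose with 3-AT, ANT1 (1.30), the peroxisomal ATP carrier, and 1 fell, the acyl-CoA synthetase gene FAA4 (-0.77), and 3 rose with rapamycin. The shares higher were 12.5% with 3-AT, below background, and 37.5% with rapamycin. Of 9 genes of division, inheritance and pexophagy, 2 rose with 3-AT (22.2%, at background) and 5 with rapamycin (55.6%), among them ATG11, a selective autophagy adaptor (0.60 and 1.13). ATG36, the pexophagy receptor, changed by 0.93 (adjusted p = 0.061) with 3-AT and rose by 1.59 with rapamycin. Of 10 genes on a list of other peroxisomal enzymes, 6 rose (60.0%) and 1 fell with 3-AT and 4 rose with rapamycin (40.0%). STR3 (4.12), LYS1 (2.39), GTO1 (1.95) and LYS4 (1.69) led with 3-AT; STR3, LYS1 and LYS4 belong to amino acid synthesis, and LYS4 is known from mitochondria. The one that fell, the nicotinamidase gene PNC1 (-0.95), is named after its value was seen.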

How the data were processed

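RNA was measured on 72 Affymetrix yeast arrays. The deposited values are intensity (signal) on a linear scale for 9335 probe sets, made by the authors with GCOS and MAS5 per the submitters' processing notes. The version of either tool is not given in the sources used here. After trimming 2% at each end, the mean of each array was 1001, so the authors had brought the arrays to one mean. No depth applies, and the number of arrays limits the precision. No array is a copy of another (highest correlation 0.971).

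From these values, any signal under 16.5, the 10th percentile over the table, was set to that value before taking log2. The 60 control probe sets were left out, 6504 others read 1 gene, 328 several and 2443 no named gene, and the highest of a gene's probe sets was kept. Probe sets above background on at least 4 arrays were tested (6869, for 5409 named genes). limma 3.58.1 (R 4.3.3) fitted 18 group means with 54 residual degrees of freedom, and p-values were adjusted by Benjamini-Hochberg within each of 28 contrasts. The fit was tested on simulated data.

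Same-numbered arrays tended to deviate together. Their deviations correlated by over 0.1 in 441 of 612 pairs (median 0.25), against 396 of 1836 pairs with different numbers (median -0.07). Deviations from a group mean cancel out within the group, so both medians are tied to each other and are not independent. Not all same-numbered pairs did so, so the rule applied did not count them as paired. The main fit has no replicate term. Any member may be named; of each other list, up to 4 genes with the largest change that passed and 1 that did not. The members and lists were chosen with earlier results of these data known. Figures were drawn with matplotlib 3.10.9 and tables made with pandas 2.3.3 and numpy 2.4.6 under Python 3.11.15. Alternatives covered the scaling, the floor, the filter, the arrays fitted, array weights, a replicate block and each array left out. Promoter sequences and coordinates were not used here.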

Additional observations from a re-analysis of the deposited data

Results flagged for a closer look

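In 18 of 306 groups of 4 arrays, over 17 of the 33 members tested, 1 array stood apart from the other 3 by Dixon's criterion (its gap over the range of the group, on log2 values); chance gives about 1 group in 20. The other members tested were not examined in this way, so outlying arrays of theirs are not in this count. Of these, 7 were on the arrays with high actin ratios. On replicate 2 of gcn4 gln3 with rapamycin they were ECI1 (167), PEX11 (734), PEX4 (22.2) and PEX13 (6.48), all low. Values without a flag were also high on that same array, for PEX19 (6408), PEX34 (8848) and PEX27 (1345, against 98.7 to 114 on the other 3). PEX6 was low there (144, against 1203 to 1408 on the other 3). PEX27 and PEX6 were not among the members examined. On replicate 1 of gcn2 gln3 with rapamycin the flagged values were PXA2 (303) and PEX34 (1486), both high. ECI1 was low (290) on the first 3-AT array of the same strain. The part of the RNA in these values was not tested. On replicate 1 of other groups stood ECI1 in gcn2 with 3-AT (893), gcn4 with 3-AT (898) and gln3 with rapamycin (312), POT1 in untreated gcn4 gln3 (78.3), PEX11 in untreated wild type (2170), PEX2 in gln3 with 3-AT (3096) and PEX13 in untreated gcn2 gln3 (405). On replicate 3 stood PEX35 (461) and SPS19 (454) in untreated gcn4 and PEX2 in untreated gcn2 (2407), and on replicate 2 PEX5 in wild type with rapamycin (189).

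The response differed from that of wild type, by the interaction term in limma, in 12 cases. With 3-AT, PEX21 rose less in gcn2 (-2.20), gcn4 (-1.29), gcn2 gln3 (-2.38) and gcn4 gln3 (-2.41). POT1 rose more in gcn4 (2.07), gcn2 gln3 (1.69) and gcn4 gln3 (2.05). PEX35 (1.48) and PEX31 (0.71) differed in gcn4, PEX5 (-0.83) in gcn2 gln3 and CTA1 (1.17) in gcn4 gln3. With rapamycin, CTA1 (-1.31) differed in gcn2 gln3. Both CTA1 values rest on untreated wild-type arrays that were not above background, so their size is uncertain.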

How the results depend on the processing

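Over the 28 contrasts, members passed 237 times. Of these calls 172 remained with median centring, 171 with quantile normalization, 236 with either other floor, 224 with no filter, 201 with only the arrays compared, 229 with array weights, 236 with the mean of probe sets, 227 without the 3 arrays with high actin ratios, and all 165 that could be tested when restricted to probe sets above background on all arrays; none reversed. Whichever array was left out, 172 remained. With the replicate block all 237 calls remained, and 61 of 72 arrays correlated best with others of their own number, a hint from the data and not from the design. The median of all probe sets moved by -0.37 to -0.05 with centring and by -0.26 to -0.09 with quantile normalization in the 12 responses. Uncalled values that turned sign and then passed were PEX31 with 3-AT in gcn2 (-0.36 with quantile normalization, against 0.01) and gcn2 gln3 (-0.37 with centring, -0.40 with quantile normalization), and PEX4 with rapamycin in gcn4 gln3 (0.84 with array weights, 0.98 without the 3 arrays, and -0.47 to 0.98 with 1 array left out, the highest without replicate 2 with rapamycin). The part of RNA quality in these shifts was not tested.

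Counts of members that moved by over 1.5 times were as follows. With centring, members higher fell to 8, 12 and 11 with 3-AT in gcn2, gcn2 gln3 and gcn4 gln3 (24.2%, 36.4% and 33.3%, against 15.2%, 15.8% and 18.1% of all probe sets). They fell to 10 and 13 with rapamycin in gcn2 and gcn4 (30.3% and 39.4%, against 12.4% and 13.8%). In each of gln3 and gcn4 gln3, 1 rapamycin difference passed (background 0.218% higher and 0.626% lower, and 1.51% and 2.90%). With quantile normalization, 12 were higher with 3-AT in gln3 (36.4%, against 13.9% of all probe sets) and 7 with rapamycin in gcn2 gln3 (21.2%, against 12.3%). Rapamycin differences then numbered 1 in gln3 (background 0.611% higher and 0.510% lower) and 3 in gcn4 gln3 (1.98% and 3.14%). Apart from the fit without the 3 arrays, the counts that follow have no background share beside them and are not read against one. Above background on all arrays, 10 and 13 were higher with rapamycin in gcn2 and gcn4, 1 differed with 3-AT in gcn4 gln3 and 0 with rapamycin in gcn2 gln3, where fewer genes were tested. With no filter 2 differed with 3-AT in gcn2, and with the higher floor 1 with rapamycin in gcn4 gln3. With only the arrays compared, 9 and 0 were higher with rapamycin in gcn2 gln3 and gcn4 gln3, 0 differed in untreated gcn4 gln3, 4, 9 and 6 with 3-AT in gcn2, gcn4 and gcn4 gln3, 0 with rapamycin in gcn2 gln3, and 14 between the drugs. With array weights 23 were higher with 3-AT in gcn2. The weighted fit also gave 1, 3, 2 and 2 untreated differences in gcn4, gln3, gcn2 gln3 and gcn4 gln3, 7, 11, 5 and 7 with 3-AT in gcn2, gcn4, gcn2 gln3 and gcn4 gln3, 2, 2, 6 and 3 with rapamycin in gcn4, gln3, gcn2 gln3 and gcn4 gln3, and 15 between the drugs. The replicate block gave 1 untreated difference in each of gcn4, gln3 and gcn2 gln3, and 1 and 2 with rapamycin in gln3 and gcn4 gln3. Without the 3 arrays, 1, 2 and 2 differed untreated in gln3, gcn2 gln3 and gcn4 gln3, 6, 8 and 8 with 3-AT in gcn2, gcn4 and gcn4 gln3, 1, 3, 7 and 2 with rapamycin in gcn4, gln3, gcn2 gln3 and gcn4 gln3, and 14 between the drugs. The background shares rose in that fit as well, as given in the Results. Leaving out 1 array gave 8 to 13 members higher with rapamycin in gcn2 gln3, 0 to 1 untreated differences in gcn4, gcn2 gln3 and gcn4 gln3, 2 to 5 and 1 to 3 differences with 3-AT in gcn4 and gcn2 gln3, and 0 to 1, 0 to 1 and 0 to 6 with rapamycin in gln3, gcn2 gln3 and gcn4 gln3. Apart from the cases where fewer genes or arrays entered, the cause was not tested.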
